A study of Mus musculus with 15 samples.

Results

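The tumour necrosis factor (TNF) superfamily comprises membrane-bound or shed ligands that act as trimers and the cell-surface receptors that bind them. Its members were taken by symbol: every gene with a single symbol in the array annotation that starts with Tnfsf or Tnfrsf and a number, together with Tnf, Lta, Ltb, Ltbr, Fas, Fasl, Cd40, Cd27, Cd70 and Eda2r. This gave 39 of the 19938 genes measured, 14 ligands and 25 receptors, each read by 1 probe set. They were compared in microvascular endothelial cells, the lining cells of small vessels, sorted from 3 organs, brain, heart and liver. All donors were Tie2-GFP mice (FVB background) aged 8 to 12 weeks, males and females 1 to 1. In all 3 groups the cells were sorted by green fluorescent protein, which the Tie2 promoter drives in endothelium; that promoter is also known to be active in some blood cells. Each of 5 brain arrays held RNA pooled from 6 mice, each of 5 heart arrays RNA from 4 mice and each of 5 liver arrays RNA from 2 mice. The pools were the replicates, so p-values measure the spread between pools. Brain was digested with collagenase and trypsin at body temperature, heart with collagenase at body temperature and liver with dispase at room temperature. Effects of tissue, enzyme, temperature and number of pooled mice cannot be told apart.

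Receptors of the family fall into those with an intracellular death domain, which can start caspase-dependent death through the adaptors Tradd and Fadd, and those that bind TRAF proteins and switch on NF-kB. Decoy receptors bind ligand without signalling. In endothelium, TNF is known for inducing the adhesion molecules that arrest leukocytes, and Tnfrsf19 (Troy) and Tnfrsf21 (death receptor 6) are known from zebrafish and mouse as Wnt-regulated receptors of brain vessels.

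The 12 pan-endothelial genes averaged 10.58 ± 0.12 in brain, with 10.56 ± 0.06 in heart and 10.49 ± 0.10 in liver on the log2 scale (SD, n = 5 arrays each, as for all means given here). All 7 brain, 6 heart and 7 liver sinusoidal endothelial markers were highest in their own tissue. Markers of other cell types were also measured. In liver, 11 of 13 macrophage and Kupffer cell markers were higher than in both other tissues, and their mean was 7.80, 5.87, 8.35, 8.03 and 5.52 in liver arrays 1 to 5, against 5.06 to 5.25 in brain and 5.15 to 5.45 in heart. In heart, 9 of 9 cardiomyocyte markers (mean 7.96 to 9.65 over the arrays) and 5 of 7 fibroblast markers (6.42 to 7.94) were higher than in both other tissues. Pericyte and smooth muscle markers averaged 6.13 to 6.25 over the liver arrays, 6.25 to 7.92 in brain and 6.90 to 8.38 in heart, with 4 of 9 lowest in liver and 3 of 9 highest in heart, and their highest arrays were brain 1 and heart 1. Hepatocyte markers averaged 7.24 ± 0.30 in liver, 5.70 ± 0.15 in brain and 4.67 ± 0.11 in heart, with 5 of 7 highest in liver, and 2 of 5 stellate cell markers were highest in liver. No neuron or astrocyte marker was highest in brain. Of 5 choroid plexus markers, 2 were highest and 1 was lowest in brain, and 1 was highest in liver. Ttr, highest in brain and also on the hepatocyte list, averaged 12.49 ± 0.30 in brain, with 5.33 ± 0.28 in heart and 8.44 ± 0.87 in liver. In such bulk samples fewer cells of a type and less RNA per cell cannot be told apart.

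Most receptors, and few of the mostly dim ligands, differed between the 3 endothelia. By limma with Benjamini-Hochberg adjustment over all genes and a threshold of 0.05, 21 of the 39 members (53.8%) differed between at least 1 pair of tissues, beside 37.8% of all genes. Of the receptors 17 of 25 (68%) did so, and of the ligands 4 of 14 (28.6%). The tissue means of a receptor spanned 0.57 log2 units in the median and those of a ligand 0.21, beside 0.23 for all genes. Most ligands were dim. Sensory receptor genes, 1194 olfactory and vomeronasal genes that endothelium is not known to use, had mean signals of 2.75 to 5.62 between their 5th and 95th percentile. In every tissue 8 of 14 ligands but 3 of 25 receptors stayed inside that range. None of these 11 members differed in any pair, while 21 of the 28 members above the range (75%) did, among them all 4 ligands that differed. That share was not counted for all genes above the range. In the counts of ligands and receptors, the kind of gene and a dim signal cannot be told apart.

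Between brain and heart, 4 members were higher in brain (background 8.29% of all genes) and 6 lower (background 7.11%), with a median brain minus heart difference over the members of -0.08 and over all genes of -0.03. Between brain and liver, 9 were higher in brain (background 11.1%) and 9 lower (background 14%), with medians of -0.02 for the members and -0.00 for all genes. Between heart and liver, 8 were higher in heart (background 11.5%) and 6 lower (background 16.3%), with medians of 0.10 and 0.03. A member was called enriched where it exceeded both other tissues by at least 1 log2 unit each with a passing adjusted p, and depleted in the mirror case. Brain had 1 enriched member, Tnfrsf19 (1.56% of all genes), heart had 1, Tnfsf9 (0.908%), and liver had 2, Tnfrsf1a and Tnfrsf26 (2.69%). Liver had 1 depleted member, Tnfrsf10b (1.46%), and brain (0.652%) and heart (0.311%) had none. Against both other tissues at any size, 4 members were highest in brain (4.7%) and 4 lowest (2.82%), 2 highest in heart (3.73%) and none lowest (3.27%), and 5 highest in liver (10.4%) and 6 lowest (5.64%). Without brain array 2, heart array 2 or heart array 4 the count higher in brain than heart was 2. Without liver arrays 1, 3 and 4, those with high macrophage markers, a comparison over liver arrays 2 and 5 alone that was added after seeing the data, 4 members were higher and 3 lower in heart than in liver.

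**Figure D1:**
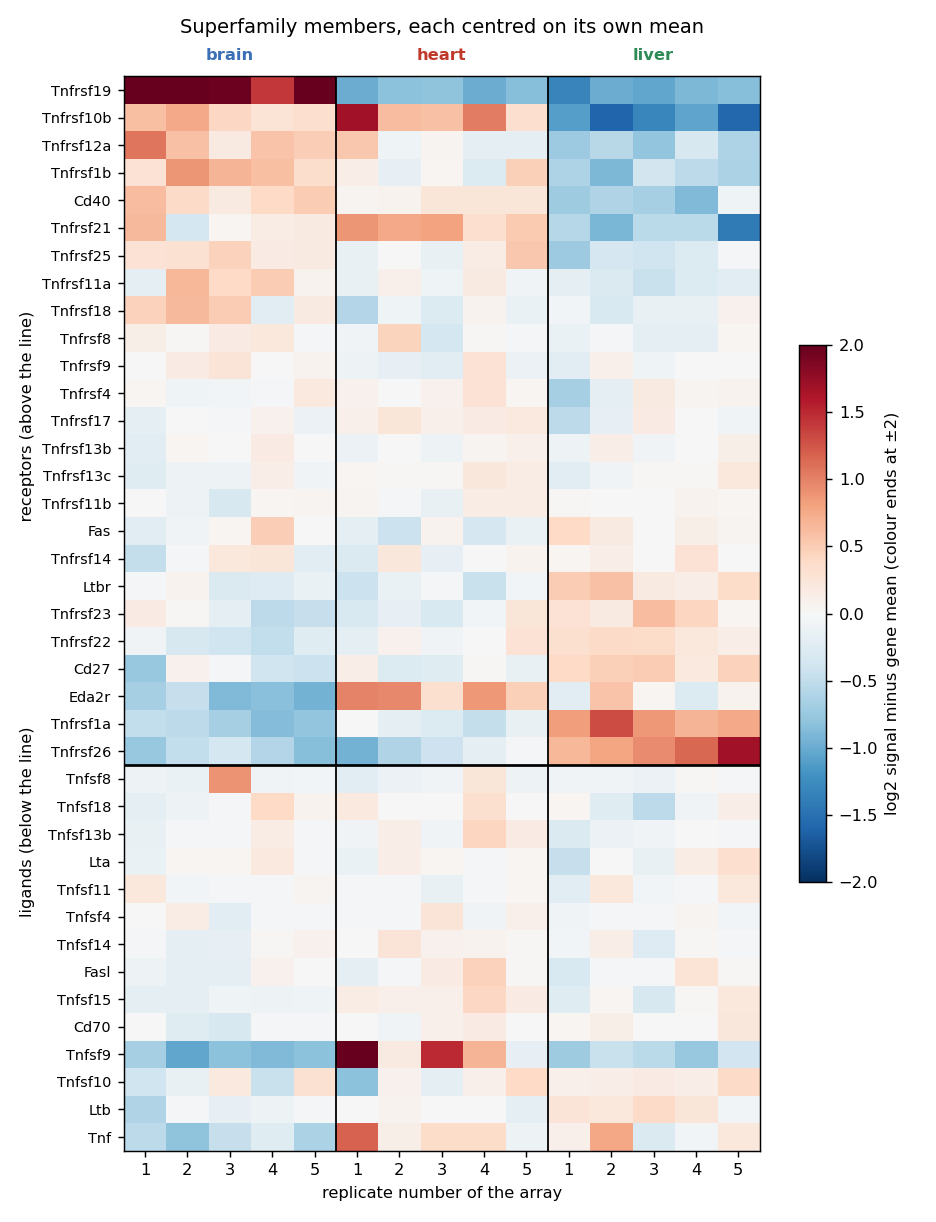
Log2 signal of the 39 members (rows) on the 15 arrays (columns, 5 per tissue), each gene centred on its own mean; red is above and blue below that mean, and colours end at 2 log2 units. Receptors stand above the line and ligands below it, each sorted by the difference of the brain and liver means; Tnfrsf19 at the top and Tnfrsf26 at the foot of the receptors mark the opposite ends, and most ligand rows are pale.

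Tnfrsf19 set brain endothelium apart. Its signal was 8.50, 8.47, 8.36, 7.82 and 8.39 in brain arrays 1 to 5, against 5.39, 5.57, 5.59, 5.40 and 5.55 in heart and 5.08, 5.40, 5.35, 5.49 and 5.54 in liver. Even the lowest brain array lay more than 2 log2 units above every heart and liver array. The heart and liver means, 5.50 ± 0.10 and 5.37 ± 0.18, fell inside the sensory receptor range. The brain mean of 8.31 ± 0.28 exceeded heart by 2.81 (SE 0.12, adjusted p = 9.54e-12) and liver by 2.94 (SE 0.12, adjusted p = 1.75e-12) in log2 signal, with no fold given against signals in that range. Astrocyte markers averaged 5.91 to 6.36 over the brain arrays, with 5.88 to 6.13 in heart and 5.88 to 5.99 in liver, and 4 of 6 lay inside the sensory receptor range in brain. Choroid plexus markers averaged 7.62 to 8.38 over the brain arrays, with 6.94 to 7.07 in heart and 7.70 to 8.25 in liver. Of these 5 markers 2 were highest and 1 was lowest in brain, so their mean is a mixed measure. The part of choroid plexus in the Tnfrsf19 value was not tested.

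Tnfrsf19 has 2 start sites in RefSeq. The 250 bases before each start are shown, because this gene was the 1 member enriched in brain, beside those of both TNF receptors, whose levels ran in opposite directions across the tissues as described further on. All are from RefSeq on GRCm38.p6 and read 5′ to 3′ on the gene's strand. Capitals mark matches to the TCF/LEF core, searched as CTTTGA and CTTTGT on both strands; no matches overlapped in these windows. The windows lie at chr14:61046856-61047105 (minus strand), chr14:61037988-61038237 (minus strand), chr6:125349473-125349722 (plus strand) and chr4:145246871-145247120 (minus strand), in the order listed.
Tnfrsf19, start 1: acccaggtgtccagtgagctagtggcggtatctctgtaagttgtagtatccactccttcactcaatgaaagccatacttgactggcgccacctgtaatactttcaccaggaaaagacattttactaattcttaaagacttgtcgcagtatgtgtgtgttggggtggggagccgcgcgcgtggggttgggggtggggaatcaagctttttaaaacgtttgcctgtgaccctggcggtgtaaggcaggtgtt
Tnfrsf19, start 2: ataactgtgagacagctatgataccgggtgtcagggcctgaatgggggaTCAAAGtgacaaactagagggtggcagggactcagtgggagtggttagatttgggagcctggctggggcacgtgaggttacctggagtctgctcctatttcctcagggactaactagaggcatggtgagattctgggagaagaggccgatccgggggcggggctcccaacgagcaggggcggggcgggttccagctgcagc
Tnfrsf1a: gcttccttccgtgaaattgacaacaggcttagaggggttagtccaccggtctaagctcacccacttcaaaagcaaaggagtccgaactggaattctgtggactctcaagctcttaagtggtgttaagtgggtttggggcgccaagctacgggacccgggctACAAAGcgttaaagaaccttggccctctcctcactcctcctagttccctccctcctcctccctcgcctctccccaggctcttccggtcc
Tnfrsf1b: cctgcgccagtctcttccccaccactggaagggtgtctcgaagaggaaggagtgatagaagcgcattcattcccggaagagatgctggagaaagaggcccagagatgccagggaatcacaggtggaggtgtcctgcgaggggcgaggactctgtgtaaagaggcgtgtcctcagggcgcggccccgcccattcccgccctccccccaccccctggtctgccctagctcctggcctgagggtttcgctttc
The window at start 2 of Tnfrsf19 held 1 match to CTTTGA, on the opposite strand, 201 to 196 bases before the start, and that of Tnfrsf1a held 1 match to CTTTGT, on the opposite strand, 89 to 84 bases before it. The other windows held none of these letters. CTTTGA stood in 5 of the 35 windows of superfamily members (14.3%) and in 13.8% of all 32851 windows of the same length. CTTTGT stood in 9 (25.7%) and in 16.5% of all. The GATA letters AGATAA stood in 1 window (2.86%) and in 9.99% of all, the ETS letters GGAAGT in 6 (17.1%) and 19.7%, and the kB motif in 4 (11.4%) and 7.25%. These matches are letters in a window, not measured binding sites. Windows were matched for 31 members.

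Further receptors were highest in brain by smaller steps. Tnfrsf12a (Fn14), the receptor of the cytokine TWEAK, averaged 7.72 ± 0.32 in brain, with 7.17 ± 0.30 in heart and 6.54 ± 0.18 in liver. Brain exceeded heart by 0.55 (SE 0.16, adjusted p = 0.0218) and liver by 1.18 (SE 0.16, adjusted p = 1.35e-05), and heart exceeded liver by 0.63 (adjusted p = 0.00575). The brain arrays, 7.32 to 8.21, overlapped the heart arrays, 6.96 to 7.68, and lay above all liver arrays, 6.36 to 6.83. Without brain array 1 or heart array 2, 4 or 5 the adjusted p of brain against heart was 0.0538 to 0.0628. Tnfrsf18 (GITR), known mainly as a co-stimulatory receptor of T cells, averaged 6.66 ± 0.35 in brain, with 6.14 ± 0.25 in heart and 6.23 ± 0.14 in liver. It was higher in brain than in heart by 0.52 (adjusted p = 0.0228) and than in liver by 0.43 (adjusted p = 0.0433). Brain array 4 (6.12) lay among the heart and liver arrays. Leaving out brain array 1, 2 or 3 or heart array 1 or 3 gave an adjusted p of 0.0516 to 0.0659 against heart, and leaving out any of 10 arrays (brain 1, 2 and 3, heart 2, 3 and 5, liver 1, 2, 3 and 4) gave 0.0513 to 0.119 against liver. Tnfrsf11a (RANK), the receptor of the osteoclast factor Tnfsf11 (RANKL), averaged 6.52 ± 0.35 in brain, with 6.23 ± 0.14 in heart and 5.95 ± 0.10 in liver. Only its difference between brain and liver passed, at 0.57 (SE 0.13, adjusted p = 0.00296). T and NK cell markers averaged 4.65 to 4.78 in brain, 4.87 to 5.04 in heart and 4.88 to 5.49 in liver, and none of 9 was highest in brain. With liver arrays 2 and 5 alone, 3 comparisons with liver no longer passed: brain against liver for Tnfrsf18 (0.43, adjusted p = 0.235) and Tnfrsf11a (0.55, adjusted p = 0.0613), and heart against liver for Tnfrsf12a (0.61, adjusted p = 0.0698).

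**Figure D2:**
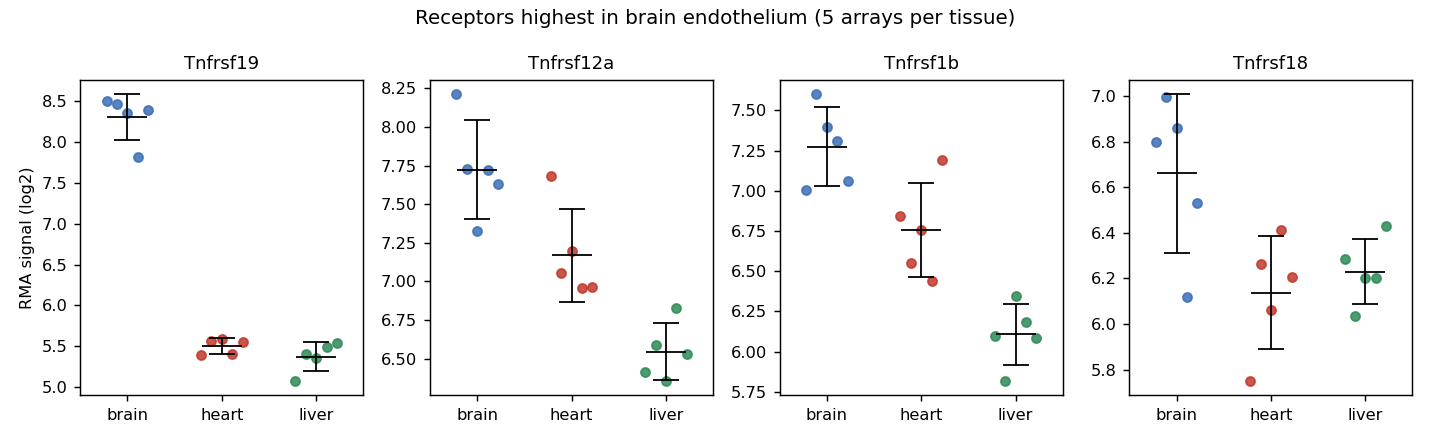
Log2 signal of the 4 receptors highest in brain endothelium, with brain, heart and liver from left to right; points are arrays (5 per tissue), the wide dash is the mean and the bars are the SD. Tnfrsf19 is separated from both other tissues by more than 2 log2 units, while the arrays of Tnfrsf12a, Tnfrsf1b and Tnfrsf18 overlap between brain and heart.

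The 2 receptors of TNF itself were graded in opposite directions. Tnfrsf1a (TNFR1) carries a death domain and is found on most cells. It read 9.41, 9.87, 9.44, 9.25 and 9.32 in liver arrays 1 to 5, against 8.09, 8.06, 7.91, 7.70 and 7.79 in brain and 8.56, 8.38, 8.30, 8.09 and 8.42 in heart. Every liver array lay above all others, and the highest brain and lowest heart values met at 8.09. Liver (9.46 ± 0.24) exceeded brain by 1.55 (SE 0.12, 2.93-fold, adjusted p = 1.12e-08) and heart by 1.11 (SE 0.12, 2.16-fold, adjusted p = 1.19e-06), and heart exceeded brain by 0.44 (adjusted p = 0.0148). Without heart arrays 1 and 3, the brain minus heart difference of Tnfrsf1a was -0.39 (adjusted p = 0.0818). Under renewed quantile normalization Tnfrsf1a no longer met the rule for enrichment in liver, though both of its differences from liver still passed. Tnfrsf1b (TNFR2) lacks a death domain and signals through TRAF2. It read 7.01, 7.60, 7.40, 7.31 and 7.06 in brain, 6.84, 6.55, 6.76, 6.44 and 7.19 in heart and 6.10, 5.82, 6.35, 6.19 and 6.08 in liver. Liver lay below all other arrays, while brain and heart overlapped. Brain exceeded heart by 0.52 (SE 0.14, adjusted p = 0.0177) and liver by 1.17 (SE 0.14, 2.25-fold, adjusted p = 4.84e-06), and heart exceeded liver by 0.65 (adjusted p = 0.00214). Without brain array 2 or heart array 2 or 4, the adjusted p of brain against heart was 0.052 to 0.0565. Within each array the Tnfrsf1a minus Tnfrsf1b difference on the log2 scale was 3.06 to 4.05 in liver, 0.39 to 1.08 in brain and 1.23 to 1.83 in heart, which shows unequal change of the 2 genes and is no ratio of their RNA. Liver arrays 2 and 5, the lowest in macrophage markers, read 9.87 and 9.32 for Tnfrsf1a. With only those 2 liver arrays in the fit, liver exceeded brain by 1.69 (adjusted p = 2.29e-06) and heart by 1.25 (adjusted p = 6.25e-05). The part of macrophages or hepatocytes in the Tnfrsf1a values was not tested.

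TRAIL (Tnfsf10) is a ligand that can kill cells through death domain receptors. Among its receptors, the death receptor was lowest in liver, and the decoys Tnfrsf22 and Tnfrsf23 were higher in liver than in brain. Tnfrsf11b, a soluble decoy receptor given further on, passed in no pair. Tnfrsf10b, the only TRAIL receptor of mice with a death domain, read 5.61, 5.14, 5.41, 5.66 and 5.15 in liver arrays 1 to 5, against 7.31, 7.48, 7.13, 7.0 and 7.06 in brain and 8.40, 7.33, 7.30, 7.74 and 7.05 in heart. Every liver array lay below every other array by more than 1 log2 unit. Liver fell below brain by 1.80 (SE 0.20, adjusted p = 1.3e-06) and below heart by 2.17 (SE 0.20, adjusted p = 1.58e-07) in log2 signal. The liver mean, 5.39 ± 0.25, lay inside the sensory receptor range, so no fold is given. Heart and brain differed by 0.37 (adjusted p = 0.254). Tnfrsf26, a mouse receptor without a death domain, showed the opposite pattern. It read 7.43, 7.56, 7.72, 7.92 and 8.45 in liver, 6.01, 6.27, 6.42, 6.19 and 5.91 in brain and 5.82, 6.17, 6.36, 6.59 and 6.74 in heart. Liver (7.82 ± 0.40) exceeded brain by 1.65 (SE 0.19, 3.15-fold, adjusted p = 1.72e-06) and heart by 1.48 (SE 0.19, 2.79-fold, adjusted p = 7.79e-06), with no overlap. Its highest value came from liver array 5, the liver array lowest in macrophage markers. That array was also the highest in hepatocyte markers, at 7.72, with 6.95 to 7.24 in the other liver arrays. Over liver arrays 2 and 5 alone the Tnfrsf26 differences were 1.84 and 1.67 (adjusted p = 8.08e-05 and 0.000252). The part of macrophages or hepatocytes in the Tnfrsf26 values was not tested.

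The mouse decoy receptors Tnfrsf22 and Tnfrsf23 bind TRAIL without a death domain. Tnfrsf22 averaged 8.04 ± 0.10 in liver, 7.45 ± 0.16 in brain and 7.78 ± 0.18 in heart. It was higher in liver than in brain by 0.59 (adjusted p = 0.000166) and higher in heart than in brain by 0.33 (adjusted p = 0.0302), and liver and heart differed by 0.26 (adjusted p = 0.0589). Leaving out brain array 2, 3 or 4 or heart array 2, 4 or 5 gave an adjusted p of 0.0524 to 0.0859 for heart against brain, and in the fit with liver arrays 2 and 5 alone it was 0.0518. Tnfrsf23 averaged 7.04 ± 0.22 in liver, 6.53 ± 0.30 in brain and 6.62 ± 0.23 in heart, higher in liver by 0.51 (adjusted p = 0.0142) and 0.43 (adjusted p = 0.0364). Without heart array 1, 2, 3 or 4 or liver array 1, 3 or 4 the adjusted p against heart was 0.0527 to 0.104, and over liver arrays 2 and 5 alone the differences were 0.31 (adjusted p = 0.342) and 0.23 (adjusted p = 0.52). Tnfrsf26, Tnfrsf22 and Tnfrsf23 are adjacent genes on chromosome 7 in RefSeq, and their tissue means had the same order, liver above heart above brain. The step from brain to heart did not pass in Tnfrsf26 (0.17, adjusted p = 0.611) or Tnfrsf23 (0.08, adjusted p = 0.776). Of all 11 pairs of members with no protein-coding gene between them, 3 had the same order of tissue means and 8 had different orders, such as Ltb beside Tnf and Tnfrsf4 beside Tnfrsf18. These orders rank the means whether or not they differed, and several of the genes were dim, so they carry little weight. The sequences of Tnfrsf26, Tnfrsf22 and Tnfrsf23 are related, so binding of one gene's RNA to another's probes cannot be told apart from its own signal. The ligand Tnfsf10 lay above the sensory receptor range in every tissue, at 8.92 ± 0.12 in liver, 8.64 ± 0.34 in brain and 8.65 ± 0.46 in heart, and no pair passed (adjusted p = 0.324 to 0.973).

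**Figure D3:**
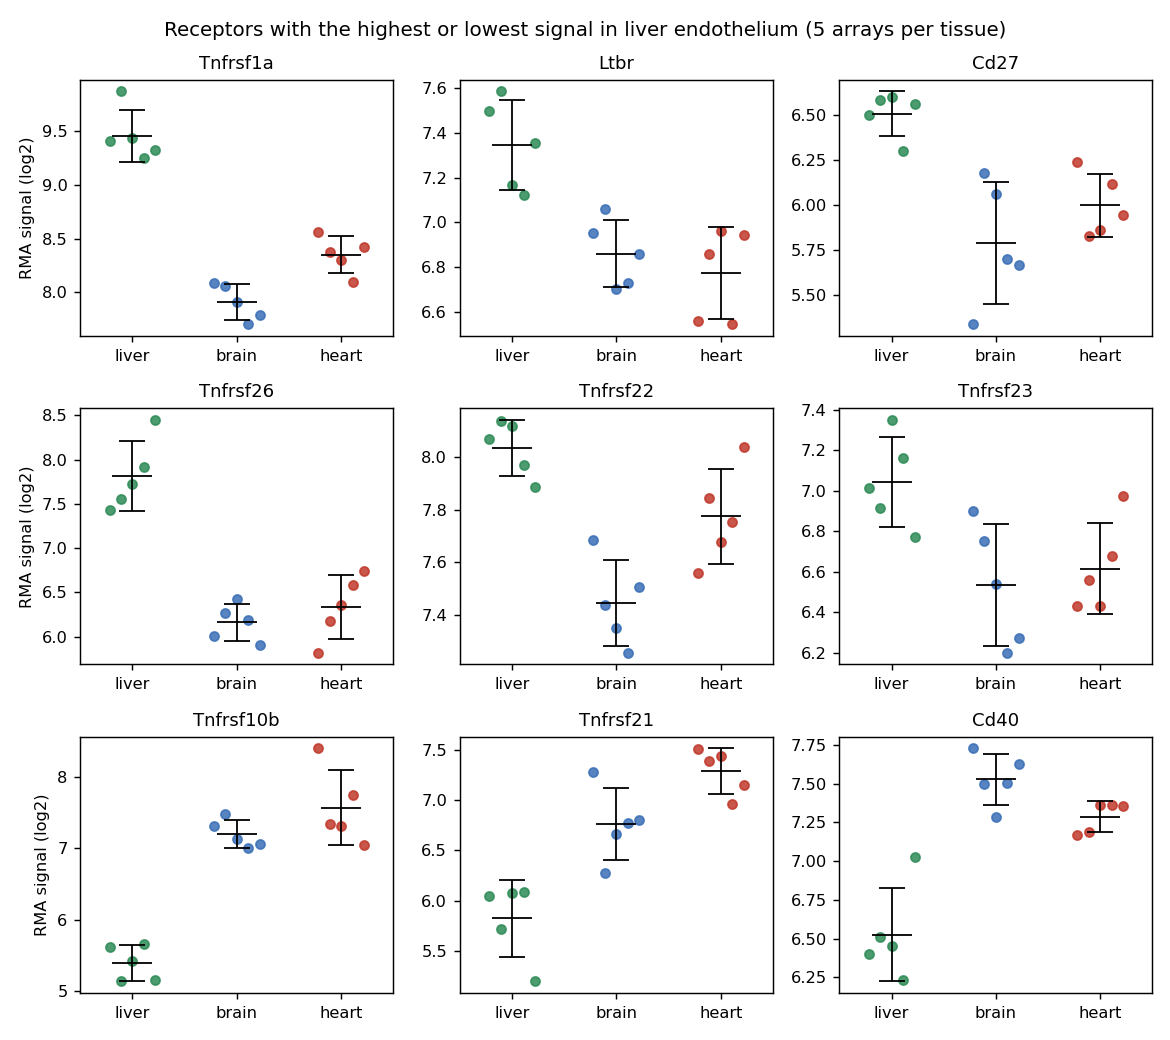
Log2 signal of 9 receptors with liver, brain and heart from left to right; points are arrays (5 per tissue), the wide dash is the mean and the bars are the SD, and each panel has its own scale. The top and middle rows hold receptors with the highest mean in liver, among them Tnfrsf1a and Tnfrsf26, and the bottom row holds Tnfrsf10b, Tnfrsf21 and Cd40, whose liver arrays lie below all brain and heart arrays.

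The other death domain receptors did not share 1 pattern. Tnfrsf21 (death receptor 6) averaged 5.83 ± 0.38 in liver, 6.76 ± 0.36 in brain and 7.28 ± 0.23 in heart. Liver fell below brain by 0.93 (SE 0.18, adjusted p = 0.000843) and below heart by 1.46 (SE 0.18, adjusted p = 8.5e-06), without overlap. Its brain minus heart difference was -0.53 (adjusted p = 0.0653). Over liver arrays 2 and 5 alone, liver was below brain by 1.30 and below heart by 1.83 in this gene, and without brain array 2 it also met the rule for depletion in liver. Its highest brain and heart values, 7.28 and 7.50, came from brain array 1 and heart array 1, as did those of Tnfrsf12a (8.21 and 7.68). Both arrays were the highest of their tissue in pericyte and fibroblast markers and in the dissociation response genes described further on. Heart array 1 was also the highest in cardiomyocyte markers, and brain array 1 was the highest brain array in choroid plexus and astrocyte markers. The part of any of these was not tested. Tnfrsf25 (death receptor 3), which binds Tnfsf15, averaged 5.88 ± 0.25 in liver, 6.52 ± 0.12 in brain and 6.31 ± 0.28 in heart. It was lower in liver than in brain by 0.64 (adjusted p = 0.00148) and than in heart by 0.43 (adjusted p = 0.0223). Without heart array 5 or liver array 1 the adjusted p against heart was 0.0603 to 0.069, and over liver arrays 2 and 5 alone neither difference passed (adjusted p = 0.0744 against brain and 0.366 against heart). Fas, the receptor of Fas ligand, lay above the sensory receptor range in all 3 tissues, at 9.19 ± 0.15 in liver, 9.08 ± 0.27 in brain and 8.83 ± 0.19 in heart. Liver exceeded heart by 0.36 (adjusted p = 0.0398), with overlapping arrays. Leaving out heart array 1, 2, 4 or 5 or liver array 1, 2 or 4 gave an adjusted p of 0.0523 to 0.11.

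Receptors of the TRAF-binding class also differed in liver. Cd40, which drives endothelial activation when it meets its ligand on T cells and platelets, averaged 6.53 ± 0.30 in liver, 7.53 ± 0.17 in brain and 7.29 ± 0.10 in heart. The liver arrays, 6.23 to 7.03, lay below all others. Liver was below brain by 1.00 (SE 0.12, adjusted p = 5.01e-06) and below heart by 0.76 (SE 0.12, adjusted p = 0.000123). Ltbr, the lymphotoxin beta receptor, averaged 7.35 ± 0.20 in liver, 6.86 ± 0.15 in brain and 6.77 ± 0.21 in heart, and was higher in liver by 0.49 (adjusted p = 0.00357) and 0.57 (adjusted p = 0.000892). Cd27, known as a lymphocyte receptor for Cd70, averaged 6.51 ± 0.12 in liver, 5.79 ± 0.34 in brain and 6.00 ± 0.17 in heart, and was higher in liver by 0.72 (adjusted p = 0.000506) and 0.51 (adjusted p = 0.00821). Liver did not overlap the other tissues for either gene. B cell markers averaged 4.98 to 5.24 in liver, 4.61 to 4.97 in brain and 4.81 to 5.02 in heart, and 3 of 9 T and NK cell markers were highest in liver. The part of lymphocytes in the Cd27 value was not tested. Over liver arrays 2 and 5 alone, Cd27 exceeded heart by 0.57 (adjusted p = 0.0539). Ltb, the membrane anchor of the Ltbr ligand, averaged 5.68 ± 0.16 in liver, 5.29 ± 0.24 in brain and 5.45 ± 0.10 in heart. The brain and heart means lay inside the sensory receptor range. Ltb was higher in liver than in brain by 0.40 (adjusted p = 0.0104), and over liver arrays 2 and 5 alone by 0.27 (adjusted p = 0.274).

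Heart exceeded both brain and liver for Tnfsf9 and Eda2r, and exceeded brain for Tnf and Tnfsf15. Tnfsf9 (4-1BB ligand), a co-stimulatory ligand that stressed and activated cells can produce, read 9.58, 4.92, 6.24, 5.43 and 4.58 in heart arrays 1 to 5, against 4.09, 3.71, 3.93, 3.86 and 3.93 in brain and 4.03, 4.31, 4.20, 3.99 and 4.37 in liver. Every heart array lay above every other array, but the heart values spanned 5 log2 units. Heart (6.15 ± 2.02) exceeded brain by 2.25 (SE 0.63, adjusted p = 0.0199) and liver by 1.97 (SE 0.63, adjusted p = 0.026) in log2 signal. The brain and liver means, 3.90 ± 0.14 and 4.18 ± 0.16, lay inside the sensory receptor range, so no fold is given. Neither difference passed with an intensity-trended robust prior (adjusted p = 0.0512 and 0.0575) or in fits of 2 tissues (adjusted p = 0.0569 and 0.0629). Heart array 1 was the highest. Without it, heart exceeded brain by 1.39 (adjusted p = 0.000315) and liver by 1.11 (adjusted p = 0.00145). Without heart arrays 1 and 3 the differences were 1.08 and 0.80 (adjusted p = 0.000126 and 0.0012). The heart arrays then left, 2, 4 and 5, read 4.58 to 5.43, inside the sensory receptor range like brain and liver. Without liver array 1 the difference from liver was 1.93 (adjusted p = 0.0547), and with liver arrays 2 and 5 alone it was 1.81 (adjusted p = 0.238). The order of the heart arrays was that of 11 immediate-early and stress genes known to respond to tissue dissociation, such as Fos, Atf3 and Hspa1a. These averaged 10.30, 8.41, 9.07, 8.65 and 7.80 in heart arrays 1 to 5, against 9.22 to 9.75 in brain and 7.66 to 9.38 in liver. They were chosen after the values were seen. None of the 11 was highest in heart against both. Cardiomyocyte markers averaged 9.65, 8.69, 9.22, 7.96 and 8.08 in the same heart arrays. The part of either in the Tnfsf9 values was not tested.

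Tnf averaged 6.45 ± 0.49 in heart, 5.53 ± 0.21 in brain and 6.21 ± 0.40 in liver. Heart array 1 was again the highest, at 7.25, and the other heart arrays read 6.18, 6.42, 6.43 and 5.96. Heart exceeded brain by 0.92 (SE 0.21, adjusted p = 0.0054), liver exceeded brain by 0.68 (SE 0.21, adjusted p = 0.024), and heart and liver differed by 0.23 (adjusted p = 0.46). The highest liver value, 6.84, came from array 2, which was also the liver array highest in the dissociation genes (9.38). Brain was lowest in Tnf, yet its arrays averaged 9.22 to 9.75 for the dissociation genes. Those genes averaged 7.80 to 10.30 over the heart arrays and 7.66 to 9.38 over the liver arrays. The part of dissociation in the Tnf values was not tested. The brain mean of Tnf lay inside the sensory receptor range. Without brain array 2 or liver array 2 the adjusted p of liver against brain was 0.0628 to 0.0676. Eda2r, the receptor of an ectodysplasin form and a known target of p53, read 6.49, 6.45, 5.81, 6.36 and 5.96 in heart, 4.82, 5.03, 4.62, 4.66 and 4.55 in brain and 5.26, 6.06, 5.53, 5.22 and 5.56 in liver. Only liver array 2 reached into the heart range. Heart exceeded brain by 1.48 (SE 0.16, adjusted p = 2.5e-06) and liver by 0.69 (SE 0.16, adjusted p = 0.00358) in log2 signal, and liver exceeded brain by 0.79 (adjusted p = 0.0011). The brain and liver means, 4.74 ± 0.19 and 5.53 ± 0.34, both lay inside the sensory receptor range, so no fold is given. Over liver arrays 2 and 5 alone, heart exceeded liver by 0.41 (adjusted p = 0.214). Tnfsf15 (TL1A), a ligand known from endothelium, averaged 5.74 ± 0.13 in heart, 5.42 ± 0.05 in brain and 5.49 ± 0.22 in liver. Heart exceeded brain by 0.31 (adjusted p = 0.0363), and the brain and liver means lay inside the sensory receptor range. Leaving out any 1 brain array, or heart array 1, 4 or 5, gave an adjusted p of 0.0531 to 0.106.

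**Figure D4:**
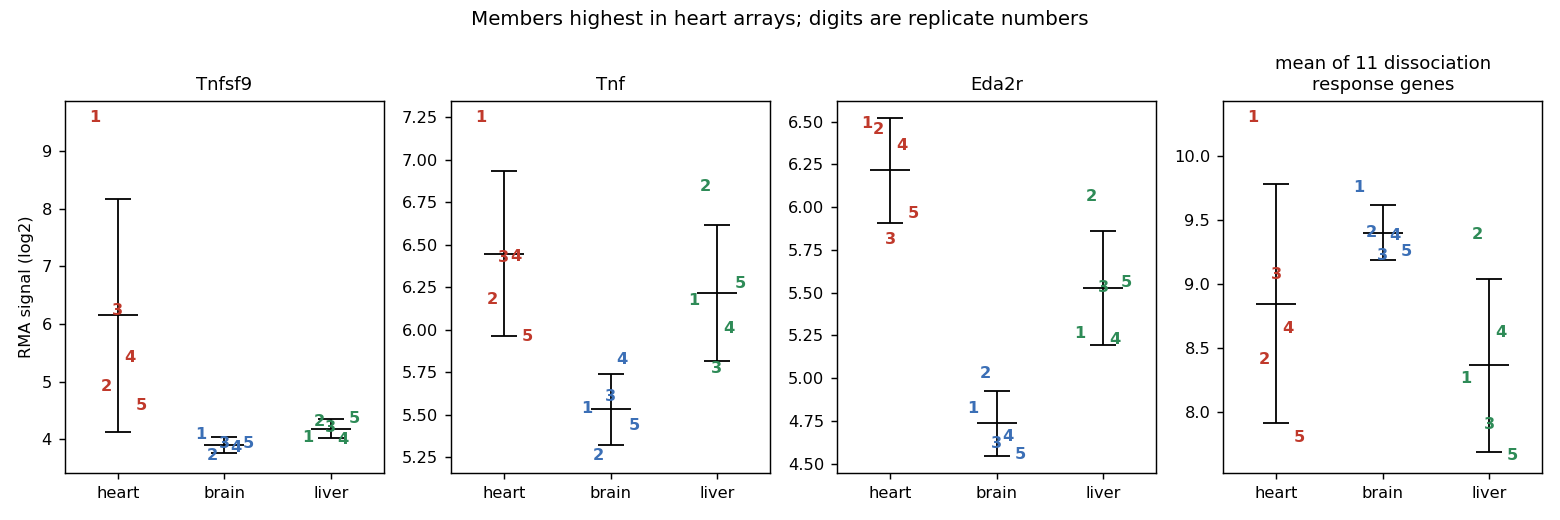
Log2 signal of Tnfsf9, Tnf and Eda2r and the mean of 11 dissociation response genes, with heart, brain and liver from left to right; each digit is an array, placed by its replicate number, the wide dash is the mean and the bars are the SD. Heart array 1 is the highest of its group in all 4 panels, and Tnfsf9 and the dissociation genes rank the 5 heart arrays alike.

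The other 18 members passed in no pair. Their tissue means spanned 0.03 to 0.28 log2 units, with a median of 0.16. They included 10 ligands. Tnfsf11 (RANKL) stayed at 6.62 ± 0.11 in brain, with 6.55 ± 0.07 in heart and 6.62 ± 0.18 in liver, and its soluble decoy Tnfrsf11b (osteoprotegerin) at 5.22 ± 0.16, 5.32 ± 0.13 and 5.31 ± 0.03 in the same order, inside the sensory receptor range. Fasl, Cd70, Lta, Tnfsf13b (BAFF), Tnfsf14 (LIGHT), Tnfsf18, Tnfsf4 (OX40 ligand) and Tnfsf8 (CD30 ligand) had tissue means of 3.61 to 5.06, all inside that range. So for Fas and Fasl, Cd27 and Cd70, and Tnfrsf18 and Tnfsf18, the receptor lay above the sensory range in every tissue and the ligand inside it. Levels of different probe sets cannot be set against each other beyond that. Of the 8 receptors known mainly from lymphocytes, 6 (75.0%) passed in no pair, beside 62.2% of all genes. They were Tnfrsf4, Tnfrsf8, Tnfrsf9, Tnfrsf13b, Tnfrsf13c and Tnfrsf17. Tnfrsf14 (HVEM), which binds Tnfsf14, averaged 5.90 ± 0.30 in brain, with 5.92 ± 0.20 in heart and 6.04 ± 0.12 in liver.

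Downstream of the receptors, 31 listed adaptors and kinases were measured, and 17 (54.8%) differed in at least 1 pair, beside 37.8% of all genes. These shares are not matched for signal, as 0 of the 31 stayed inside the sensory receptor range. Of all 19938 genes, 12782 lay above it. Liver had 6 that were higher than in both other tissues (19.4% of the list, 10.4% of all genes). They were Tradd and Fadd, the death domain adaptors, the kinases Map3k7 and Tbk1, the deubiquitinase Otulin and the ectodysplasin adaptor Edaradd. Fadd averaged 8.18 ± 0.23 in liver, 7.53 ± 0.15 in brain and 7.27 ± 0.23 in heart. Map3k5 (ASK1), a kinase upstream of JNK and p38, differed most. It averaged 9.45 ± 0.23 in heart, 7.10 ± 0.31 in brain and 6.06 ± 0.32 in liver, so that heart exceeded brain 5.10-fold (log2 difference 2.35, adjusted p = 7.84e-09) and liver 10.4-fold (3.38, adjusted p = 3.38e-11). Traf5 and Tab2 were lowest in liver like Map3k5, Traf3ip2 was lowest in brain, and Ikbkb was highest in brain. The remaining 6, Traf1, Tank, Tnip1, Rbck1, Sharpin and Tnfaip3, passed in 1 pair each.

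Of the 21 death machinery genes measured, 12 (57.1%) differed in at least 1 pair, beside 37.8% of all genes. In this list 5 were lowest in brain (23.8% of the list, 2.82% of all genes) and 4 highest in liver (19%, 10.4% of all genes). These shares are not matched for signal either, as 1 of the 21 stayed inside the sensory receptor range. That gene was Bid, whose tissue means ran from 4.82 to 5.15. Its call as lowest in brain rests on an adjusted p of 0.0398 against heart and 0.03 against liver. The brain-low genes were Cflar and Xiap, both known as inhibitors of caspase activation, the BH3-only gene Bid, the necroptosis effector Mlkl and the apoptosome scaffold Apaf1, so promoters and inhibitors of death were both among them. Mlkl was depleted in brain, at 6.74 ± 0.32, against 7.91 ± 0.21 in heart and 8.37 ± 0.18 in liver (brain minus heart -1.18, adjusted p = 7.58e-06, brain minus liver -1.64, adjusted p = 5.38e-08). Casp8, the caspase activated at death receptors, was highest in liver with Xiap, Mlkl and Apaf1, at 10.18 ± 0.17, against 9.47 ± 0.24 in brain and 9.68 ± 0.15 in heart. The inhibitor Faim was enriched in brain, at 9.17 ± 0.14, against 7.58 ± 0.16 in heart and 8.03 ± 0.28 in liver (differences 1.59 and 1.14, adjusted p = 2.48e-08 and 8.24e-07). Bcl2l1 was highest in brain and lowest in liver, and Bcl2 and Faim2 were highest in heart.

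Of 24 measured NF-kB subunits, inhibitors and TNF-responsive genes, 8 (33.3%) differed in at least 1 pair, a share near the 37.8% of all genes. Vcam1, the adhesion molecule that binds leukocyte integrins, was enriched in brain, at 10.19 ± 0.38, against 8.29 ± 0.38 in heart and 8.70 ± 0.18 in liver (differences 1.90 and 1.49, adjusted p = 5.28e-07 and 5.39e-06). Nfkbia, the NF-kB inhibitor, was also highest in brain. The chemokine Cxcl10 was enriched in liver, at 8.27 ± 1.13, against 6.47 ± 0.23 in brain and 6.21 ± 0.23 in heart (differences 1.80 and 2.06, adjusted p = 0.00116 and 0.000353). Tnfaip8 was depleted in liver, at 5.43 ± 0.44, inside the sensory receptor range, against 6.81 ± 0.18 in brain and 6.87 ± 0.11 in heart (differences -1.38 and -1.45, adjusted p = 2.41e-06 and 1.76e-06). Among 7 related genes outside the symbol rule, Adam10 was highest in brain and Adam17, the protease that sheds TNF, was lowest in liver. Eda, Edar, Ngfr, Relt and Cd40lg were neither highest nor lowest against both other tissues. The part of macrophages in the liver values of all these downstream lists was not tested. Nor was that of cardiomyocytes and fibroblasts in the heart values, Map3k5 among them.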

How the data were processed

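RNA was measured on 15 Affymetrix mouse arrays, 5 per tissue. The authors deposited log2 values, made by RMA, which corrects background, normalizes by quantiles and summarises each probe set, with Affymetrix Power Tools, per the submitters' processing notes. For neither tool is a version given in the sources used here, nor a genome build for the array. Per the labels' protocols, 5 ng of RNA was amplified per array after 60 min of digestion. RMA compresses large differences, so folds are likely to understate those in RNA, and the number of arrays limits the precision. Array medians lay between 5.98 and 6.11.

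Of 35556 probe sets, 21789 carried 1 symbol in GEO's platform annotation, 1621 carried several and the other 12146 are unnamed here. The probe set with the highest mean was kept per gene, which gave 19938 genes. All 39 members matched RefSeq symbols; 1 probe set with several symbols that include superfamily names was left out.

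The model had 1 mean for each tissue and used every array (limma 3.58.1, R 4.3.3, lmFit and eBayes, 12 residual and 4.75 prior degrees of freedom), with Benjamini-Hochberg adjustment over all genes within each pair of tissues. Adjusted p-values come from this fit, and differences carry its standard error (SE). The fit was tested on simulated data. The members and gene lists were chosen with earlier results of these data known. Members enriched or depleted are given by array, members with a call by mean, and of other lists the enriched or depleted genes by value. Alternatives were another summary of probe sets, a filter on dim genes, centring on pan-endothelial genes, renewed quantile normalization, a trended robust prior, fits of 2 tissues, the replicate number as a block and leaving out arrays.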

Additional observations from a re-analysis of the deposited data

Results flagged for a closer look

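In 7 of 117 groups of 5 arrays (39 members in 3 tissues), 1 array stood apart by Dixon's test at 95% (gap over range above 0.71). Chance alone gives about 1 such group in 20, which is 5.85 of 117. In brain, array 4 had the lowest Tnfrsf19 signal at 7.82, with the others at 8.36 to 8.50. Array 1 had the lowest Ltb signal at 4.87, with the others at 5.31 to 5.43. Array 3 had the highest Tnfsf8 signal at 4.56, with the others at 3.54 to 3.61. In heart, array 4 was the highest for 3 members. It read 6.20 for Tnfrsf4, with the others at 5.92 to 5.99, 5.80 for Tnfrsf9, with the others at 5.29 to 5.41, and 5.96 for Tnfsf15, with the others at 5.65 to 5.72. In liver, array 5 had the highest Tnfsf10 signal at 9.12, with the others at 8.84 to 8.91. Why these arrays stood apart was not tested.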

How the results depend on the processing

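Of the 42 member differences that passed, 22 passed under all 24 alternative settings and 0 reversed in any. Counts of members moved by over 1.5 times in these cases. Renewed quantile normalization left 1 member enriched in liver in place of 2, as Tnfrsf1a no longer met the rule. The smallest heart minus liver difference of Tnfrsf1a over all settings was -0.96, and it passed under each. No member was enriched in heart (0 in place of 1, Tnfsf9) under the trended robust prior, in fits of 2 tissues or without heart arrays 1 and 3. Without liver arrays 1, 3 and 4, a setting chosen after seeing the data, 4 members in place of 8 were higher and 3 in place of 6 lower in heart than liver, 1 in place of 0 was depleted in brain, 0 were enriched in heart, 2 in place of 1 were depleted in liver, and 13 of the 42 differences no longer passed. That setting has fewer arrays. The cause of the other moves was not tested. Without heart arrays 1 and 3, 5 of the 42 differences no longer passed. In brain minus heart these were Tnfrsf18 (0.37, adjusted p = 0.163), Tnfrsf1a (-0.39, adjusted p = 0.0818) and Tnfsf15 (-0.35, adjusted p = 0.0598). In heart minus liver they were Tnfrsf12a (0.45, adjusted p = 0.0504) and Tnfrsf23 (-0.305, adjusted p = 0.217). Leaving out 1 array at a time, 2 to 4 members were higher in brain than heart, 0 to 1 enriched in heart and 1 to 2 depleted in liver. The replicate block kept 39 of the 42 calls and lost 3: Tnfrsf18 in brain minus liver (0.43, adjusted p = 0.0739), Fas in heart minus liver (-0.36, adjusted p = 0.0611) and Tnfrsf23 in heart minus liver (-0.43, adjusted p = 0.0672). Arrays share only a number: 6 of 15 same-numbered pairs had deviations correlated above 0.1 (r = -0.00 to 0.20), and an array correlated best with its own number in 20 of 30 comparisons, a hint from the data and not the design. Calls also ended in brain minus liver for Tnfrsf18 under centring, renewed quantile normalization and fits of 2 tissues (adjusted p = 0.0705, 0.0652 and 0.0509), in heart minus liver for Fas and Tnfrsf23 under renewed quantile normalization (0.241 and 0.0697) and for Tnfrsf25 under centring (0.0712), and in brain minus heart for Tnfsf15 under centring (0.0804) and Tnfrsf22 in fits of 2 tissues (0.054). Centring on pan-endothelial genes lowered the share of all called genes that were higher in brain than liver to 32.0%, against 44.1% as deposited, and the share higher in heart than liver to 29.6%, against 41.3%; the members' counts were then 8 higher and 9 lower in brain than liver, and 7 and 7 in heart than liver. The small signal of most ligands over the sensory receptor range limits what could be seen of them.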
